A study of Mus musculus with 6 samples.

Results

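The enzymes that attach long-chain fatty acids to coenzyme A and then to phospholipids were examined in cultured mouse osteoblasts. The group held the acyl-CoA synthetases Acsl1, Acsl3, Acsl4 and Acsl5, the lysophospholipid acyltransferases Lpcat1, Lpcat2, Lpcat3 and Lpcat4, and the coenzyme Q reductase Aifm2. The table rows were matched by gene symbol, and all 9 were among the 21686 genes of the count table. The cells were MC3T3-E1 Subclone 14, a single clone of a mouse calvarial osteoblast line, so the libraries describe that clone and not osteoblasts of an animal. Control cells received 100 µL of PBS, the dexamethasone group received 10 µM dexamethasone, and the dexamethasone + EPC-EVs group received 10 µM dexamethasone with 100 µg of extracellular vesicles from mouse bone marrow endothelial progenitor cells. Each treatment lasted 72 hours and each group had 2 libraries. No group received vesicles without dexamethasone, so the vesicles were compared only on top of the glucocorticoid. The study calls the libraries biological replicates, but the labels do not say whether they came from separate cultures, so the p-values measure the spread between these libraries, which may be technical.

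A free fatty acid must be joined to coenzyme A before a cell can build it into a lipid, and long-chain acyl-CoA synthetases carry out that step. Lysophospholipid acyltransferases then place the acyl group on a lysophospholipid, a phospholipid that has lost a fatty acid to a phospholipase A2, in the remodelling route known as the Lands cycle. Acsl4 prefers arachidonic acid and Lpcat3 transfers polyunsaturated acyl groups, and both are known for loading membranes with the lipids that are peroxidized in ferroptosis, an iron-dependent form of cell death. Aifm2, also named FSP1, works on the opposite side of that process: it reduces coenzyme Q at the membrane to a form that traps lipid radicals.

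Total counts ran from 5146760 to 13182014 per library, and the 2 deepest libraries were those of the dexamethasone + EPC-EVs group. Mitochondrially encoded genes took 7.46% and 8.62% of the counts in control, 5.55% and 5.78% in dexamethasone, and 0.465% and 0.727% in dexamethasone + EPC-EVs. The gene with the most counts was mt-Co1 in the other 4 libraries, at 2.80% to 3.73% of the counts, and the noncoding Gm26917 in both dexamethasone + EPC-EVs libraries, at 5.88% and 6.69%. No label separates a library batch from the treatment, so that composition and the vesicles cannot be told apart. When the mitochondrially encoded genes were dropped before normalization, 0, 5 and 5 of the 9 genes were called in the 3 comparisons described below, as with them included, beside 0.00773%, 39.9% and 36.3% of all genes. Of 12 osteoblast markers none was at 0 in every library, and their summed level was 15902 to 17463 CPM (TMM-normalized counts scaled to a common library size) in control, 17075 to 17536 in dexamethasone and 23461 to 29296 in dexamethasone + EPC-EVs. Most of the higher sum came from Col1a1 and Col1a2, while Spp1 and Phex, of the same list, were called lower than in dexamethasone, at -1.06 and -1.92 on the log2 scale (edgeR adjusted p = 0.000155 and 0.00297). Spp1 was abundant in every library, at 4405 to 11314 CPM, and Phex had 45 to 165 counts, whereas Alpl had 0 to 17 counts, Ibsp 2 to 26 and Bglap 0 to 83. Of 10 endothelial markers 8 were listed, with a summed level of 379 to 417 CPM in control, 363 to 373 in dexamethasone and 244 to 290 in dexamethasone + EPC-EVs, nearly all of it from Cd34, while Cdh5 had at most 1 count. Of 7 adipocyte markers 4 were listed and summed to 3.18 to 7.82, 2.36 to 10.6 and 0.157 to 0.792 CPM in the same order of groups. Nearly all of that sum came from Fabp4, with Adipoq and Plin1 at no more than 1 count. Of 9 macrophage and leukocyte markers 4 were listed, and they summed to 11.7 to 12.1, 17.2 to 18.4 and 19.0 to 54.2 CPM, the highest value coming mostly from Csf1r in 1 library.

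All 9 genes had a RefSeq promoter window (GRCm38.p6), running from 250 bases before to 50 bases after the transcription start. The windows of the genes that later passed the test once the vesicles were added to dexamethasone differed in base composition. GC content was 71.0% for Lpcat3, 74.0% for Acsl3, 53.0% for Acsl5 and 79.0% for Lpcat4, and 74.0% and 50% for the 2 windows of Acsl1, beside a median of 52.7% over 32851 windows. The part of the window that lies outside annotated exons is shown for the 3 genes that rose, and for the GC-poor window of Acsl1, which fell. All 4 lie on the + strand of GRCm38, and capitals mark matches on either strand to the GC box GGGCGG, to the NF-Y box CCAAT or to the sterol regulatory element TCACCCCAC. Lpcat3 is shown at chr6:124662854-124663026, Acsl3 at chr1:78657575-78657824, Acsl5 at chr19:55253119-55253368 and Acsl1 at chr8:46490716-46490965.
Lpcat3: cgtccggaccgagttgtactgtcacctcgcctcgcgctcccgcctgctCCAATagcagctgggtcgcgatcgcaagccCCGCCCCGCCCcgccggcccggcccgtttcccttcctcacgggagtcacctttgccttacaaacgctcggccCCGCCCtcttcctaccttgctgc
Acsl3: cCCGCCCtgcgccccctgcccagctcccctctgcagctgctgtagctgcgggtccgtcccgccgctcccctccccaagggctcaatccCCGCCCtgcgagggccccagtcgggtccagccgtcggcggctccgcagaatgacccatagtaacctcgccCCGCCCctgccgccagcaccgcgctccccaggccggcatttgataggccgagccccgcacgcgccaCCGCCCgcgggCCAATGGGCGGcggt
Acsl5: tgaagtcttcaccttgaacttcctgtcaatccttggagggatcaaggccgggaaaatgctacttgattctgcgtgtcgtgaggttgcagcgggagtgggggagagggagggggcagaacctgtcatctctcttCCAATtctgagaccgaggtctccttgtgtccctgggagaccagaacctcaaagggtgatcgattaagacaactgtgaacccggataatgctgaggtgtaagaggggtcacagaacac
Acsl1, second window: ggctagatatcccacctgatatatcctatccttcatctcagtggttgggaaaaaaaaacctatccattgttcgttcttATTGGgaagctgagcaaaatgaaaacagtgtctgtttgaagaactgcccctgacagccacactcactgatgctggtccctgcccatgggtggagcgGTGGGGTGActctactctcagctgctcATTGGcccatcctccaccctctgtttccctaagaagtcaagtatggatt

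Over its whole window Lpcat3 had 4 matches to the NF-Y box and 6 to the GC box, Acsl3 had 1 and 5, and Acsl5 had 1 and 0. In Acsl3 an NF-Y box and a GC box stood side by side just before the start. The second window of Acsl1 held 2 NF-Y boxes and a sterol element that began 76 bases before the start, while its first window held 7 GC boxes and no NF-Y box. Among the remaining genes there were 2 GC boxes in Acsl4, 3 in Lpcat1, 3 in Lpcat4, 2 with 1 NF-Y box in Lpcat2, and none of either in Aifm2, which held 2 copies of the nuclear receptor element AGGTCA. The NF-Y box was found in 37.4% of all windows, the GC box in 35.7%, the receptor element in 16.3% and the sterol element in 0.551%. Direct repeats of that element with 4 or 1 bases between the copies, the forms named for LXR and PPAR (0.0152% and 0.0396% of all windows), the E-box CACGTG (7.15%) and the glucocorticoid element ACANNNTGT (6.85%) were not found in the window of any of the 9 genes. These are matches of letters only.

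All 9 genes passed the filter on low counts in each of the 3 comparisons. Calls were made with edgeR's quasi-likelihood test at an adjusted p under 0.05 over all genes tested. In the comparison of dexamethasone with control, 0 of the 9 were called, beside 0.0544% of 12879 genes (7 genes), and 2 of them, Acsl3 and Aifm2, had an unadjusted p under 0.05, beside 10.9% of all genes. Limma on log2(FPKM + 1) and DESeq2 also called 0, and DESeq2 gave no adjusted p for Acsl5, Lpcat1, Lpcat2, Lpcat3 and Aifm2. When dexamethasone + EPC-EVs was set against dexamethasone, 5 were called, with Acsl3, Acsl5 and Lpcat3 higher and Acsl1 and Lpcat4 lower, beside 39.8% of 13556 genes. Against control 5 were called as well, with Acsl3, Acsl5, Lpcat3 and Aifm2 higher and Acsl1 lower, beside 36.4% of 13511 genes, while limma called 3 beside 35.5% of all genes. The median log2 fold change of the 9 genes was 0.37, 0.05 and 1.15 in the 3 comparisons, and that of all genes tested was 0.007, 0.012 and 0.021. The comparisons share libraries and are therefore not independent of each other, and in bulk RNA fewer cells of a kind cannot be told apart from less RNA per cell.

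**Figure D1:**
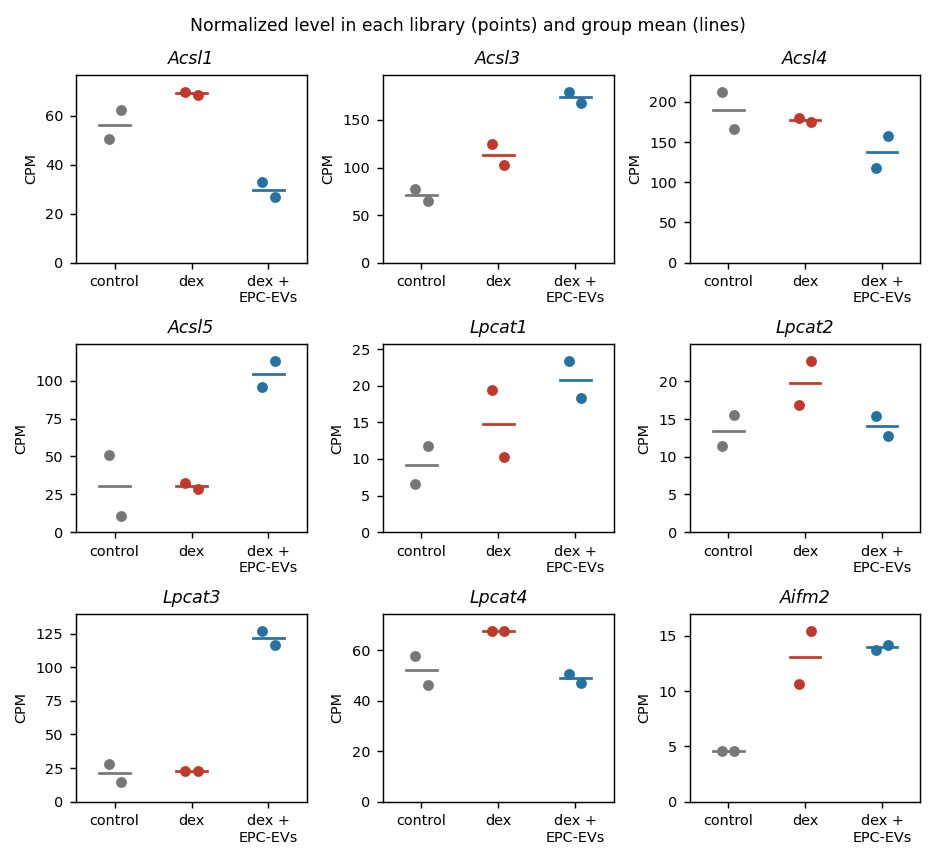
Level of each of the 9 genes in each library, in CPM after TMM normalization (y axis, starting at 0), for control (grey), dexamethasone (red) and dexamethasone + EPC-EVs (blue), with 2 libraries per group as points and the group mean as a line. Lpcat3, Acsl5 and Acsl3 are highest and Acsl1 is lowest in both dexamethasone + EPC-EVs libraries, and Aifm2 is lowest in both control libraries.

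Among the synthetases, Acsl4 was the most abundant per length in control and in dexamethasone, and Acsl3 was in dexamethasone + EPC-EVs. Acsl4 (ENSMUSG00000031278.12, GRCm38 chromosome X, 142317993 to 142390535, - strand) activates arachidonic acid and other polyunsaturated fatty acids. Its level was 213 and 166 CPM in control, 180.4 and 175 CPM in dexamethasone, and 118 and 157 CPM in dexamethasone + EPC-EVs. The 2 dexamethasone libraries lay within the range of the controls, and both dexamethasone + EPC-EVs libraries lay below the other 4. The log2 difference of dexamethasone from control was -0.10 (SE 0.170, edgeR adjusted p = 0.874), with a 95% interval from -0.47 to 0.28. From dexamethasone to dexamethasone + EPC-EVs it was -0.42 (SE 0.157, edgeR adjusted p = 0.0529), and from control to dexamethasone + EPC-EVs it was -0.51 (SE 0.219, edgeR adjusted p = 0.0997), so neither passed the threshold. The difference from dexamethasone alone passed in 7 of 14 alternatives, in 1 of them with the opposite sign. With 1 library left out, the difference of dexamethasone + EPC-EVs ran from -0.62 to -0.21 against dexamethasone and from -0.72 to -0.28 against control. With each library corrected for its dependence on GC content and length, Acsl4, with 39.0% GC in its transcripts, was higher under the vesicles than under dexamethasone alone by 0.46 on the log2 scale (edgeR adjusted p = 0.0312) and higher than in control by 0.62 (edgeR adjusted p = 0.0746).

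This dependence concerns the whole table. Genes called higher under the vesicles than under dexamethasone alone had a median GC content of 54.2%, genes called lower had 43.9%, and all tested genes had 48.8%. The GC content of the 9 genes ran from 39.0% in Acsl4 to 60.8% in Lpcat4, and values with this trend removed are therefore given beside the calls of the 9 genes. The part of GC content in the differences was not tested.

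Acsl3 (ENSMUSG00000032883.15, chromosome 1, 78657825 to 78707743, + strand) sits at the endoplasmic reticulum and on lipid droplets and also makes the acyl-CoA of monounsaturated fatty acids. Its level was 77.9 and 64.7 CPM in control, 124 and 102 CPM in dexamethasone, and 180 and 168 CPM in dexamethasone + EPC-EVs. The 3 groups did not overlap, and each treatment step lay above the one before. From dexamethasone to dexamethasone + EPC-EVs Acsl3 rose by 0.57 on the log2 scale (SE 0.147, edgeR adjusted p = 0.00938), and by 0.96 with the GC trend removed (edgeR adjusted p = 0.000694). The call was lost without dexamethasone replicate 2, at 0.44 (edgeR adjusted p = 0.128). Against control the rise was 1.24 (SE 0.198, edgeR adjusted p = 0.00219), or 1.78 with the GC trend removed (edgeR adjusted p = 0.000544). The difference between dexamethasone and control was 0.66 (SE 0.198, edgeR adjusted p = 0.316) and passed the threshold only without control replicate 1, at 0.81 (edgeR adjusted p = 0.00214). In that fit the spread comes from the 2 dexamethasone libraries alone, and the lone control is assumed to vary as they do. Acsl3 shares 13475 bases of its span with Utp14b on the same strand, and Utp14b was also higher under the vesicles, by 0.62 (edgeR adjusted p = 0.0113).

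Acsl5 (ENSMUSG00000024981.6, chromosome 19, 55251938 to 55297720, + strand) is found on mitochondria and the endoplasmic reticulum and is best known for channelling fatty acids into triglyceride in intestine and liver. It was measured at 51.1 and 10.4 CPM in control, 32.8 and 28.4 CPM in dexamethasone, and 95.8 and 113 CPM in dexamethasone + EPC-EVs. The 2 control libraries lay on either side of both dexamethasone libraries, and dexamethasone + EPC-EVs lay above all 4. The mean of Acsl5 was 30.6 ± 3.07 CPM (SD, n = 2) under dexamethasone and 104 ± 12.1 CPM (SD, n = 2) with the vesicles, a rise of 1.72 on the log2 scale (SE 0.182, edgeR adjusted p = 3.09e-05). The call held in 14 of 14 alternatives, where the value ran from 1.54 to 1.85 and was 1.77 with the GC trend removed (edgeR adjusted p = 4.07e-05). Against control, at 30.7 ± 28.8 CPM (SD, n = 2), the change was 1.70 with a wider interval, from 0.44 to 2.97 (edgeR adjusted p = 0.0415), and 1.79 with the GC trend removed (edgeR adjusted p = 0.0382). Its size moved with the controls, to 3.32 without control replicate 1 and 0.9998 without control replicate 2, both called. This second call was lost with DESeq2, with limma on log2(FPKM + 1) and with no filter. Leaving out control replicate 1 turned the difference of dexamethasone from control from -0.02 to 1.56 (edgeR adjusted p = 0.00203), again with the spread of the dexamethasone libraries alone. Zdhhc6 covers 26430 bases of the same span on the other strand and was higher in dexamethasone + EPC-EVs by 0.48 (edgeR adjusted p = 0.0419), and whether counting used strand is not given in the sources used here.

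Acsl1 (ENSMUSG00000018796.13, chromosome 8, 46471037 to 46536051, + strand), the main synthetase of fat, heart and liver, was the only Acsl gene called lower as fitted. Its level was 50.3 and 62.3 CPM in control, 69.9 and 68.6 CPM in dexamethasone, and 32.8 and 26.8 CPM in dexamethasone + EPC-EVs. Both dexamethasone libraries lay above the controls and both dexamethasone + EPC-EVs libraries lay below them. The difference of dexamethasone from control was 0.29 (SE 0.214, edgeR adjusted p = 0.649), with an interval from -0.18 to 0.76. From dexamethasone to dexamethasone + EPC-EVs Acsl1 fell by 1.26 on the log2 scale (SE 0.193, edgeR adjusted p = 0.000384), a call that held in 14 of 14 alternatives with values from -1.40 to -0.99, the latter with the GC trend removed (edgeR adjusted p = 0.00268). Against control it fell by 0.97 (SE 0.256, edgeR adjusted p = 0.0188), and this call was lost with the GC trend removed (-0.55, edgeR adjusted p = 0.120), with limma on log2(FPKM + 1) and without dexamethasone + EPC-EVs replicate 2. The summed adipocyte markers, given above and nearly all from Fabp4, were lowest in the same 2 libraries. Their part in the level of Acsl1 was not tested, and their defining members Adipoq and Plin1 had at most 1 count in any library.

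Because FPKM values are counts scaled to gene length and library total, the synthetases could be set beside each other within a library. Of the summed FPKM of the 4 synthetases, Acsl4 held 54.3% and 57.3% in control, 44.3% and 47.5% in dexamethasone, and 25.4% and 31.2% in dexamethasone + EPC-EVs. Acsl3 held 24.6% and 27.7%, then 37.9% and 34.4%, then 48.1% and 41.2%. Both shares moved in steps without overlap between the groups, in opposite directions. The share of Acsl5 was 14.5% and 3.97% in control, 8.94% and 8.55% in dexamethasone and 22.9% and 24.9% in dexamethasone + EPC-EVs, and that of Acsl1 was 6.62% and 11.1%, then 8.85% and 9.58%, then 3.64% and 2.74%. The sum itself was 72.7 and 52.4 FPKM in control, 78.6 and 70.6 in dexamethasone, and 84.3 and 90.2 in dexamethasone + EPC-EVs. These shares are descriptions, and no test was made on them. They come from FPKM values that still carry the GC trend. With that trend removed from the counts, Acsl4 was higher under the vesicles, by 0.46 against dexamethasone and 0.62 against control (edgeR adjusted p = 0.0312 and 0.0746). Acsl3 was then higher by 0.96 and 1.78.

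**Figure D2:**
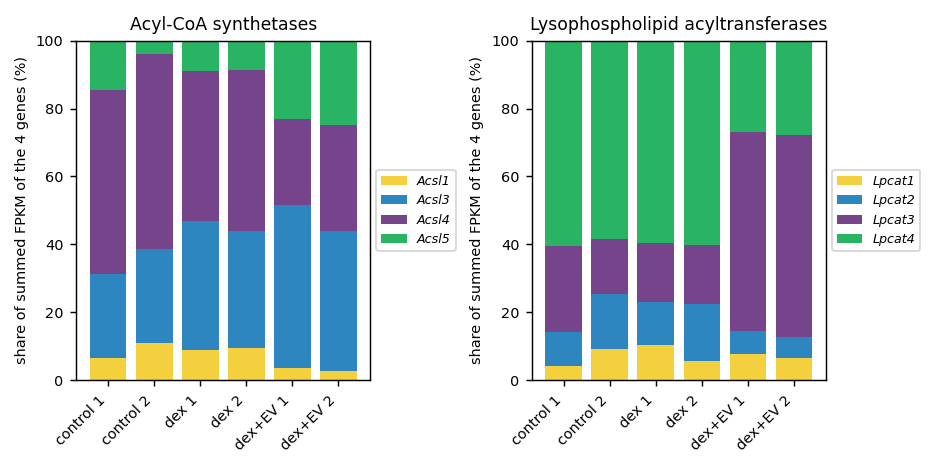
Share of each gene in the summed FPKM of the 4 acyl-CoA synthetases (left) and of the 4 lysophospholipid acyltransferases (right), in percent on the y axis, 1 bar per library. The share of Acsl4 is 54.3% and 57.3% in the controls but 25.4% and 31.2% with the vesicles, and Lpcat3 takes over from Lpcat4 as the largest share of the acyltransferases. The shares are not corrected for the GC trend.

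Lpcat3 had the largest change of the 9 genes. It is an enzyme of the endoplasmic reticulum that esterifies arachidonic and linoleic acid to lysophosphatidylcholine, and a textbook target of the sterol-sensing receptor LXR. The gene lies on chromosome 6 (ENSMUSG00000004270.13, 124663027 to 124704418, + strand) and shares 334 bases with Emg1 on the other strand. It was measured at 28.2 and 14.7 CPM in control, 22.9 and 22.8 CPM in dexamethasone, and 127 and 117 CPM in dexamethasone + EPC-EVs. The dexamethasone libraries lay between the controls, and both dexamethasone + EPC-EVs libraries stood far above the other 4. Lpcat3 rose from 22.8 ± 0.0267 CPM (SD, n = 2) in dexamethasone to 122 ± 7.35 CPM (SD, n = 2) with the vesicles, or by 2.37 on the log2 scale (SE 0.172, edgeR adjusted p = 2.82e-06). Against control, at 21.5 ± 9.51 CPM (SD, n = 2), it rose by 2.45 (SE 0.308, edgeR adjusted p = 0.000888). Both calls held in 14 of 14 alternatives, and with the GC trend removed the rises were 2.01 (edgeR adjusted p = 1.07e-05) and 1.90 (edgeR adjusted p = 0.00114). The difference of dexamethasone from control was 0.08 (SE 0.359, edgeR adjusted p = 0.961), and its interval, from -0.71 to 0.87, leaves room for a moderate change either way. Emg1 was higher as well, by 0.71 in the comparison with dexamethasone (edgeR adjusted p = 0.0397) and by 1.07 in that with control (edgeR adjusted p = 0.0270).

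Lpcat4 (ENSMUSG00000027134.4, chromosome 2, 112239468 to 112247111, + strand), which acylates lysophosphatidylcholine and lysophosphatidylethanolamine, moved the other way from Lpcat3. Its level was 57.8 and 46.2 CPM in control, 67.4 and 67.7 CPM in dexamethasone, and 50.5 and 47.1 CPM in dexamethasone + EPC-EVs. Dexamethasone lay above the other 4 libraries, which overlapped. Lpcat4 fell by 0.52 on the log2 scale from dexamethasone to dexamethasone + EPC-EVs (SE 0.172, edgeR adjusted p = 0.0332). That call held in 8 of 14 alternatives, with adjusted p up to 0.123, and with the GC trend removed the fall was larger, at -1.48 (edgeR adjusted p = 0.000103). The differences of dexamethasone and of dexamethasone + EPC-EVs from control were 0.37 (SE 0.216, edgeR adjusted p = 0.547) and -0.14 (SE 0.234, edgeR adjusted p = 0.674). With the GC trend removed the latter became -1.61 (edgeR adjusted p = 0.00127).

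Lpcat1 and Lpcat2 were low and were not called in any of the 3 comparisons as fitted. Lpcat1 (ENSMUSG00000021608.15, chromosome 13, 73467197 to 73516422, + strand) makes the saturated phosphatidylcholine of lung surfactant. It was measured at 6.52 and 11.7 CPM in control, 19.4 and 10.3 CPM in dexamethasone, and 23.4 and 18.3 CPM in dexamethasone + EPC-EVs. Each neighbouring pair of groups overlapped, and only control and dexamethasone + EPC-EVs did not, where the difference was 1.15 (SE 0.414, edgeR adjusted p = 0.0593). This difference was called in 4 of 14 alternatives (all 6 libraries in 1 fit, at least 10 counts in every library, no filter, and without control replicate 2), and over all 14 it ran from 0.61 to 1.65. From control to dexamethasone it was 0.70 (SE 0.494, edgeR adjusted p = 0.634), and from there to dexamethasone + EPC-EVs 0.44 (SE 0.334, edgeR adjusted p = 0.320). With 1 library left out these values ran from 0.17 to 1.19 (without dexamethasone replicate 1 and control replicate 2) and from 0.06 to 0.985 (without dexamethasone replicate 2 and replicate 1), and none of them was called. Lpcat2 (ENSMUSG00000033192.5, chromosome 8, 92855339 to 92919279, + strand), the enzyme of inflammatory cells that also makes platelet-activating factor, was measured at 11.4 and 15.5 CPM, 16.9 and 22.7 CPM, and 15.4 and 12.7 CPM in the same order. Its differences were 0.55 for dexamethasone against control (SE 0.376, edgeR adjusted p = 0.621), -0.54 for dexamethasone + EPC-EVs against dexamethasone (SE 0.296, edgeR adjusted p = 0.171) and 0.01 against control (SE 0.378, edgeR adjusted p = 0.981). Counts per library were 40 to 295 for Lpcat1 and 70 to 194 for Lpcat2. On its own strand Lpcat2 shares 1005 bases with Capns2, which had 13 to 38 counts.

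Within the summed FPKM of the 4 acyltransferases, Lpcat4 held the largest share in the first 4 libraries, at 60.5% and 58.5% in control and 59.6% and 60.1% in dexamethasone, and 27.0% and 27.8% in dexamethasone + EPC-EVs. Lpcat3 held 25.5% and 16.1%, then 17.5% in both dexamethasone libraries, then 58.6% and 59.4%. The order of the 2 genes was thus exchanged in both dexamethasone + EPC-EVs libraries, in FPKM values that still carry the GC trend. The share of Lpcat2 ran from 6.24% to 16.8% and that of Lpcat1 from 4.15% to 10.4% over the 6 libraries. The sum was 33.9 and 27.3 FPKM in control, 41.8 and 41.2 in dexamethasone, and 65.1 and 58.1 in dexamethasone + EPC-EVs.

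Aifm2 (ENSMUSG00000020085.15, chromosome 10, 61715263 to 61739260, + strand) was the gene in which dexamethasone alone stood farthest from control on the log2 scale. It shares 596 bases with H2afy2 on the other strand. It had 28 and 23 counts in control, 73 and 105 in dexamethasone, and 173 and 181 in the deeper dexamethasone + EPC-EVs libraries, or 4.56 and 4.58 CPM, 10.6 and 15.5 CPM, and 13.7 and 14.2 CPM. Both treated groups lay above control and overlapped each other. The log2 difference of dexamethasone from control was 1.50 (SE 0.498), with an interval from 0.40 to 2.60, and did not pass the threshold over all genes (edgeR adjusted p = 0.351). Against control, dexamethasone + EPC-EVs was higher by 1.56 (SE 0.438, edgeR adjusted p = 0.0240). This call was lost with the GC trend removed (0.86, edgeR adjusted p = 0.177). It was also lost without either dexamethasone + EPC-EVs library, although the difference stayed between 1.55 and 1.60 with 1 library left out. The difference between the 2 treated groups was 0.05 (SE 0.329, edgeR adjusted p = 0.917), with an interval from -0.67 to 0.77. The rule of the study's methods, an unadjusted p under 0.05 with a log2 fold change beyond 1.5, was applied here to the edgeR values, whereas the study used DESeq. Aifm2 was the 1 gene of the 9 that passed in dexamethasone against control, beside 1.41% of all genes. Its value of 1.502 lay at the edge of that rule, and it ran from 1.02 to 1.75 over the 13 alternatives, with 1.27 when the GC trend was removed. The same rule passed Lpcat3 and Acsl5 against dexamethasone, beside 14.2% of all genes, and these 2 and Aifm2 against control, beside 20.7%.

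**Figure D3:**
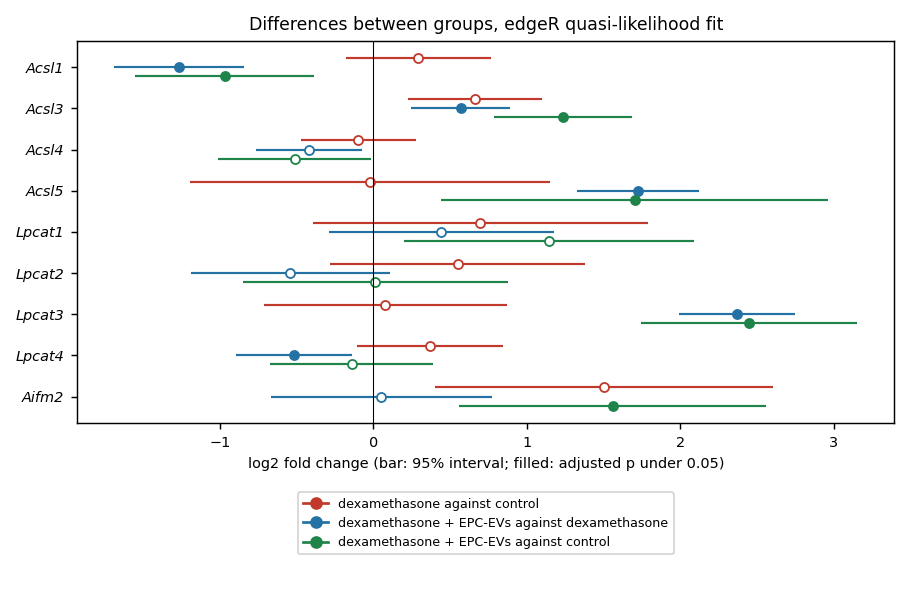
Log2 fold change of each of the 9 genes (x axis) with its 95% interval as a bar, for dexamethasone against control (red), dexamethasone + EPC-EVs against dexamethasone (blue) and dexamethasone + EPC-EVs against control (green). Filled points have an edgeR adjusted p under 0.05: none of the red points, 5 blue and 5 green points are filled.

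Groups that do not overlap are common with 2 libraries each. In dexamethasone against control 5 of the 9 genes did not overlap, all of them higher in dexamethasone, beside 44.1% of all genes. The corresponding counts were 7 of 9 in dexamethasone + EPC-EVs against dexamethasone, beside 72.6% of all genes, and 7 of 9 against control, beside 73% of all genes.

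The order of levels per length, in FPKM without removal of the GC trend, differed between the groups. In control Acsl4 led at 34.7 ± 6.68 FPKM (SD, n = 2), followed by Lpcat4 at 18.2 ± 3.22 and Acsl3 at 16.2 ± 2.41, whose ranges overlapped. Lpcat3, Acsl5 and Acsl1 came next at 6.52, 6.31 and 5.31 FPKM, each overlapping its neighbour, and Lpcat2, Lpcat1 and Aifm2 closed the order at 3.92, 1.94 and 1.10 FPKM. In dexamethasone Acsl4 stood at 34.2 ± 0.923 FPKM (SD, n = 2), Acsl3 at 27.0 ± 3.92 and Lpcat4 at 24.8 ± 0.0911, with the last 2 overlapping. Lpcat3, Acsl1, Acsl5 and Lpcat2 lay between 7.26 and 6.06 FPKM, where only Lpcat3 stood clear of its neighbour, and Lpcat1 and Aifm2 overlapped at 3.33 and 3.28 FPKM. In dexamethasone + EPC-EVs the lead was shared by Acsl3 at 38.9 ± 2.33 FPKM (SD, n = 2) and Lpcat3 at 36.3 ± 2.59, which overlapped. Acsl4 at 24.7 ± 4.77 and Acsl5 at 20.9 ± 2.20 FPKM overlapped below them, then came Lpcat4 at 16.8, Lpcat1 at 4.38 and Lpcat2 at 4.04, which overlapped, Aifm2 at 3.30 and Acsl1 at 2.77 FPKM.

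Transcript values were analysed for chromosome 1, where Acsl3 was the 1 member. Of its 11 transcripts the most abundant forms with several exons were ENSMUST00000142704.7 with 15 exons and ENSMUST00000035779.14 with 16 exons. The 15-exon form was measured at 13.7 and 1.03 FPKM in control, 28.1 and 11.2 FPKM in dexamethasone, and 24.95 and 28.4 FPKM in dexamethasone + EPC-EVs. The 16-exon form was at 4.21 and 8.29, 6.19 and 11.9, and 15.0 and 12.6 FPKM. Replicates differed by a larger ratio for either form than for the whole gene. A 14-exon form, ENSMUST00000134566.7, was listed at 0 in all 4 control and dexamethasone libraries and at 8.19 and 2.43 FPKM in dexamethasone + EPC-EVs. An exact 0 here can also be a failed estimate, since the assembler divides reads between forms that share most exons. With limma on log2(FPKM + 1), 0 of the 7, 9 and 9 transcripts tested were called in the 3 comparisons, beside 0.0582%, 0.0225% and 0.115% of the chromosome 1 transcripts. The 14-exon form and ENSMUST00000132997.1 met the minimum of 1 FPKM only in dexamethasone + EPC-EVs, so that they had to be higher there, and no test of them is given. Of the 6, 7 and 6 transcripts at 1 FPKM or more in every library compared, 0, 1 and 1 had an unadjusted p under 0.05, beside 3.11%, 22.4% and 23.9% of such chromosome 1 transcripts. Of 4 single-exon pieces assembled within the span of the gene, MSTRG.4589.1 had its lowest values in dexamethasone + EPC-EVs, with 7.87 and 11.3 FPKM in control, 14.7 and 6.15 in dexamethasone, and 3.91 and 1.60 in dexamethasone + EPC-EVs (limma adjusted p = 0.145 against dexamethasone).

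**Figure D4:**
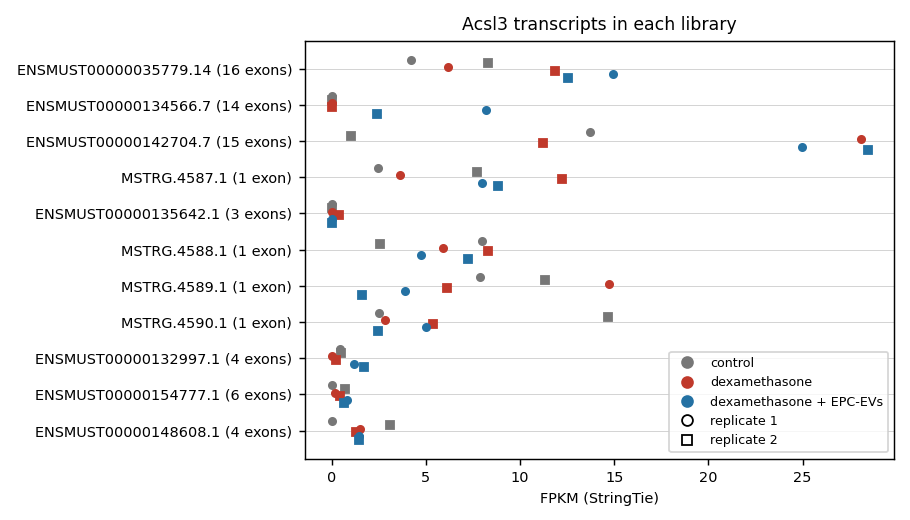
FPKM of the Acsl3 transcripts in each library, with colour for the group and a circle or square for replicate 1 or 2. The 14-exon form ENSMUST00000134566.7 is at 0 outside the dexamethasone + EPC-EVs libraries, and the 15-exon form spreads from 1.03 to 13.7 FPKM between the 2 controls.

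The other genes of the pathway were taken from lists of 129 genes written from general knowledge, of which 113 were in the table. Of those tested, 26 were called higher and 14 lower of 91 in dexamethasone + EPC-EVs against dexamethasone, beside 20.9% higher and 18.9% lower of all genes. Of the 40, Dhodh, Angptl4 and Fabp4 fell short of the filter on low counts in at least 1 library of the group where they were low. Among the 84 list genes that reached it in every library, 25 were called higher and 12 lower, beside 22.8% and 19.7% of such genes. Against control 25 were called higher and 9 lower of 89, beside 19.1% and 17.2%, and 24 and 8 of the 79 that reached the filter in every library, beside 20.9% and 18.3%. In dexamethasone against control edgeR called 0 of 87, with 13 at an unadjusted p under 0.05 beside 10.9% of all genes, limma called 0, and DESeq2 called 3 beside 0.66% of the genes it fitted. With the GC trend removed, 29 were called against dexamethasone, 16 of them higher, beside 31.5% of all genes called and 15.4% called higher under that setting, and 22 were called against control, beside 26.1%. Up to 3 genes are named per list, by size among those called against dexamethasone, and their values refer to that comparison.

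Most called synthetases outside the Acsl group were higher. All 3 tested long-chain or very-long-chain synthetases of the fatty acid transport protein family were called, Slc27a4 at a log2 fold change of 1.94 (edgeR adjusted p = 9.48e-05), Slc27a1 at 1.74 (edgeR adjusted p = 0.000182) and Slc27a3 at 1.67 (edgeR adjusted p = 0.000809). Slc27a4 was measured at 17.4 and 7.76 CPM in control, 13.4 and 12.1 in dexamethasone, and 44.0 and 57.2 in dexamethasone + EPC-EVs. The list held 9 genes, and the other 6 were unlisted or too low to test. Of 5 tested short- and medium-chain synthetases 2 were called higher and 1 lower, namely Acss2, which activates acetate, at 2.76 (edgeR adjusted p = 4.56e-06), Aacs, which activates acetoacetate, at 2.29 (edgeR adjusted p = 4.94e-06) and Acss3 at -0.72 (edgeR adjusted p = 0.0463). Acss2 went from 11.6 and 11.7 CPM in control and 15.4 and 11.3 CPM in dexamethasone to 96.5 and 90.7 CPM. The calls of Slc27a3 and Acss3 were lost with the GC trend removed (edgeR adjusted p = 0.0792 and 0.982).

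Of 4 tested genes of the fatty acid desaturase and elongase list, 3 were called higher, and the elongase Elovl5 was at -0.0786 (edgeR adjusted p = 0.717). Fads2 was at 1.92 (edgeR adjusted p = 8.92e-06) and Fads1 at 1.12 (edgeR adjusted p = 5.1e-05), the desaturases of polyunsaturated fatty acid synthesis, and Fads3, a family member known for acting on sphingoid bases, was at 1.53 (edgeR adjusted p = 3.65e-05). Fads2 was measured at 71.7 and 56.1 CPM in control, 105 and 73.8 CPM in dexamethasone, and 356 and 341 CPM in dexamethasone + EPC-EVs. The call of each of these 3 genes held with the GC trend removed. Of 14 other glycerolipid and lysophospholipid acyltransferases 5 were called higher and 2 lower, and the largest were Agpat2 at 1.67 (edgeR adjusted p = 0.00271), Agpat1 at 1.25 (edgeR adjusted p = 9.71e-05) and Gpam at 1.05 (edgeR adjusted p = 0.00308), all of the route that builds phosphatidic acid from glycerol phosphate. The call of Agpat1 was lost with the GC trend removed (edgeR adjusted p = 0.0606).

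The list of phospholipases A2 and related lipases was mixed, with 2 higher and 3 lower of 11 tested and a median of -0.20. Pla2g4a, the cytosolic enzyme that frees arachidonic acid, was measured at 102 and 121 CPM in control, 106 and 119 CPM in dexamethasone, and 44.6 and 36.2 CPM in dexamethasone + EPC-EVs, and it fell by 1.53 on the log2 scale (edgeR adjusted p = 5.04e-05). Pla2g7, the secreted hydrolase of platelet-activating factor, fell by 1.58 (edgeR adjusted p = 0.00465), and Pnpla6 rose by 1.17 (edgeR adjusted p = 0.00168). Of 13 acyl-CoA thioesterases and binding proteins 2 were called higher and 2 lower. Acbd4 was at 1.06 (edgeR adjusted p = 0.0224), Dbi, which carries acyl-CoA in the cytosol, was at 1.02 (edgeR adjusted p = 0.00033), and Acbd3, a Golgi protein, was at -1.02 (edgeR adjusted p = 0.000472). The calls of Acbd3 and Acbd4 were lost with the GC trend removed (edgeR adjusted p = 0.216 and 0.574), and that of Dbi held.

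Of 6 tested genes of polyunsaturated lipid oxygenation and peroxidation, 1 was called, the cytochrome P450 reductase Por, at 0.52 (edgeR adjusted p = 0.0236). With the GC trend removed Por turned to -0.25 and its call was lost (edgeR adjusted p = 0.244). Under that setting Ptgs2 of the same list was called higher, at 0.66 (edgeR adjusted p = 0.0275). The 12/15-lipoxygenase gene Alox15 had at most 4 counts in any library. Around Aifm2, 19 genes of coenzyme Q synthesis and other lipid radical traps were tested. Of the 18 that reached the filter on low counts in every library, 3 were called higher and 2 lower. Dhodh, which reduces coenzyme Q in mitochondria, had 1 dexamethasone library short of the filter. It passed only through the dexamethasone + EPC-EVs libraries, where it was high, so no test of it is given. Its level was 3.42 and 1.59 CPM in control, 2.18 and 0.736 CPM in dexamethasone, and 17.2 and 16.1 CPM in dexamethasone + EPC-EVs. Coq4, which is needed for coenzyme Q synthesis, was at 2.22 (edgeR adjusted p = 0.00776), and its call held with the GC trend removed.

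Of the 9 tested receptors and targets of LXR, the regulator known for Lpcat3, 4 were called higher and 1 lower, and they did not share a direction. Abca1, the cholesterol exporter and standard LXR target, fell by 2.05 (edgeR adjusted p = 0.0135), from 10.0 and 6.77 CPM in dexamethasone to 2.77 and 1.41 CPM, with 3.58 and 0.995 CPM in control. Rxrb, a partner receptor, rose by 1.43 (edgeR adjusted p = 0.00115) and Srebf1, which encodes a lipogenic transcription factor, by 1.303 (edgeR adjusted p = 0.00551). All 4 higher calls were lost with the GC trend removed. The edgeR adjusted p was then 0.210 for Rxrb, 0.158 for Srebf1, 0.295 for Rxra and 0.336 for Nr1h2, which turned to -0.27. Under that setting Abca1 stayed called lower, at -1.91 (edgeR adjusted p = 0.0239), and Pltp was called lower, at -0.83 (edgeR adjusted p = 0.000833). Of 9 tested receptors and targets of PPAR, the regulator known for Acsl1, 7 reached the filter on low counts in every library, and of these 0 were called higher and 1 lower. This was Acadl, at -0.58 (edgeR adjusted p = 0.0464), and its call was lost with the GC trend removed (edgeR adjusted p = 0.197). The other 2, Angptl4 and Fabp4, passed the filter only through the dexamethasone libraries and had to be lower with the vesicles, so no test of them is given. Angptl4 had 26 and 57 counts in dexamethasone and 0 and 10 in dexamethasone + EPC-EVs, and Fabp4 had 65 and 15 against 9 and 2.

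Genes with the most similar pattern were sought for 3 members by the distance between centred log2 CPM values over the 6 libraries, among 9222 genes. For Lpcat3 these were Cacna1a (distance 0.301), Junb (0.331) and Fkbp10 (0.350), for Acsl1 Med4 (0.207), Col20a1 (0.220) and Esd (0.233), and for Acsl4 Samd8 (0.120), Gm44250 (0.155) and Glt8d1 (0.166). Junb, for example, was measured at 32.3 and 17.9 CPM in control, 29.6 and 26.8 CPM in dexamethasone, and 175 CPM in both dexamethasone + EPC-EVs libraries. These distances rest on 6 libraries that also share their depth and composition, and they describe likeness only.

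**Figure D5:**
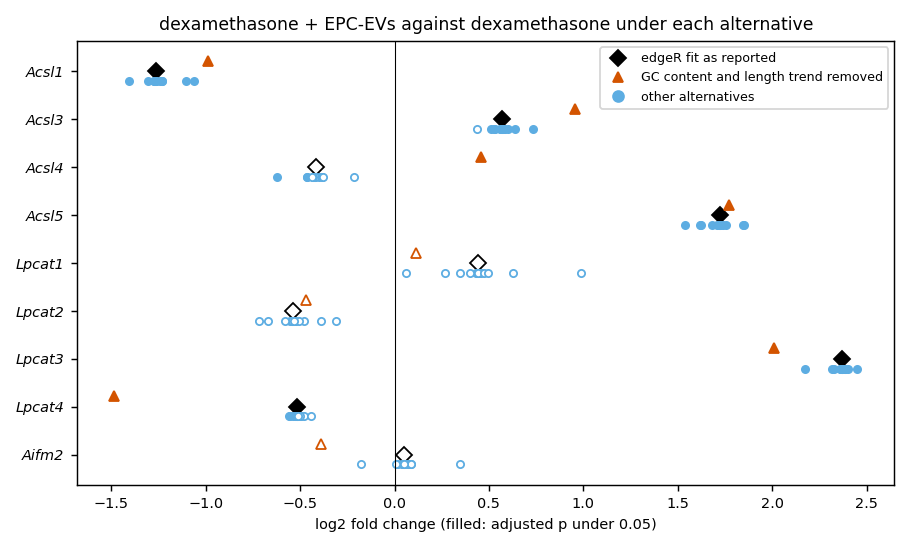
Log2 fold change of each gene in dexamethasone + EPC-EVs against dexamethasone (x axis) in the edgeR fit as reported (black diamonds), with the GC content and length trend removed (orange triangles) and under the other alternatives (blue circles), filled where the adjusted p was under 0.05. Lpcat3, Acsl5 and Acsl1 stay on 1 side and filled throughout, and Acsl4 changes side with the trend removed, from -0.42 to 0.46.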

How the data were processed

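RNA was extracted from 6 samples of MC3T3-E1 Subclone 14 cells, 2 per treatment, and sequenced by the authors. Gene read counts were made by the authors with HTSeq 0.6.1 on GRCm38, and the deposited table also holds FPKM, which equals the count over gene length and library total. Transcript FPKM values were deposited as assembled by the authors with StringTie, and those of chromosome 1 were used. The submitters' notes also name DESeq2 1.26.0. Counts cover 5146760 to 13182014 per library, and a floor of 3 counts corresponds to 0.228 to 0.583 CPM.

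Counts were compared 2 groups at a time with edgeR 4.0.16 (TMM, filterByExpr, robust quasi-likelihood test, Benjamini-Hochberg adjustment over all genes tested). CPM values were normalized by TMM over the 6 libraries. Transcripts listed at 1 FPKM or more in at least 2 libraries were compared with limma 3.58.1 on log2(FPKM + 1). Both tests were run on simulated data in which known changes had been planted. Only the edgeR run had a criterion to pass, and part of the transcript run used less than the median spread of the transcripts. The 14 alternatives (13 where DESeq2 gave no adjusted p) changed the normalization, the filter, the tool (DESeq2 1.42.0, or limma on log2(FPKM + 1), which also changes the values fitted), the libraries fitted, a replicate block, the mitochondrial genes, a loess trend (span 0.4) on GC content and length, or left out 1 library. A count of calls among genes reaching the filter in every library was added after the data were seen. Coordinates and overlaps were taken from GENCODE vM21, in which 21646 of 21686 genes were found, and promoters from RefSeq.

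All 9 members were named, and of each list the 3 genes with the largest change among those called in dexamethasone + EPC-EVs against dexamethasone, and every list gene called in dexamethasone against control. The 3 nearest genes were named for Lpcat3, Acsl1 and Acsl4 among genes whose mean reached 10 CPM. Alox15, Ptgs2, Rxra, Nr1h2, Pltp and the single marker genes were named after their values were seen. The members, lists and alternatives were chosen with earlier results of these data known. A gene that the rule names is not reported here. Protein sequences were not used here.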

Additional observations from a re-analysis of the deposited data

How the results depend on the processing

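Of 373 values of single genes under the alternatives, 326 kept their direction and side of the threshold, 16 lost the call, 13 gained it and 18 changed direction. In dexamethasone + EPC-EVs against dexamethasone the calls of Lpcat3, Acsl5 and Acsl1 held in 14 of 14 alternatives. With the GC content and length trend removed, Acsl4 changed direction to 0.46, 0.62 and 0.15 (against dexamethasone, against control, and dexamethasone against control), Aifm2 to -0.39 in the first of these, and Acsl5, Lpcat3 and Lpcat4 to 0.0218, -0.0876 and -0.11 in dexamethasone against control. The trend setting re-fits every library, and the cause of the GC difference was not tested. In dexamethasone against control Acsl5 also became 0.33 with limma on log2(FPKM + 1), and against control Lpcat2 became -0.0447 with upper quartile normalization. With 1 library left out at a time, the genes with any change of direction had values, over all such fits, in dexamethasone against control from -0.73 to 1.56 for Acsl5, from -0.25 to 0.10 for Acsl4 and from -0.30 to 0.63 for Lpcat3. The values were from -0.18 to 0.35 for Aifm2 against dexamethasone, and against control from -0.27 to 0.0712 for Lpcat4 and from -0.15 to 0.27 for Lpcat2. Of these values only Acsl5 passed the threshold, at 1.56 without control replicate 1. Against control Acsl5 kept its direction and ranged from 0.9998 to 3.32.

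Samples with the same replicate number did not deviate together to a visible degree (correlations 0.0546, 0.0208 and 0.00649 over 13465 genes). Such values cannot exclude that samples with the same number were handled together. With the replicate block, Acsl5 became 0.32 in dexamethasone against control, 6 members in place of 5 were called against dexamethasone (5366 in place of 5397 genes), with Acsl4 added (edgeR adjusted p = 0.0334), and 43 genes in place of 7 were called in dexamethasone against control. The block changed the call of no other member.

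Genes called in dexamethasone against control numbered 23 with at least 10 counts in every library, 130 with DESeq2, 11 with the trend removed, 0 with limma, 1 without the mitochondrial genes, 248 with no filter, and 9 to 2200 with 1 library left out, the highest without control replicate 1. Where a group is left with 1 library, the spread comes from the other group alone and the lone library is assumed to vary like it. Pathway list genes called there numbered 1 with at least 10 counts, 3 with DESeq2, 1 with the trend removed, 3 with no filter, 1 with the block and 0 to 22 with 1 library left out. Against control 22 list genes in place of 34 were called with the trend removed, where 3519 genes in place of 4916 were called. Leaving out 1 library gave 3250 to 4813 genes against dexamethasone, the lowest without dexamethasone replicate 2, and 0 to 2, 3 to 5 and 3 to 7 members called in dexamethasone against control, against dexamethasone and against control, where 3375 to 6231 genes were called. Limma called 3 members against control, beside 4797 of 13511 genes, and the study's rule passed 1, 2 and 3, beside 182, 1922 and 2793 genes. With a pseudocount of 0.1 in place of 1, 1 Acsl3 transcript was called against dexamethasone and 1 against control, in both the 14-exon form that met the filter only through dexamethasone + EPC-EVs, and leaving out 1 library gave 0 to 1 against control. Control had 23 to 28 counts of Aifm2 per library.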
